A study of Mus musculus with 6 samples.

Results

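The natural killer (NK) cell receptors examined here are 10 genes, chosen by symbol from the 23946 rows of the deposited table. They are Ncr1, Klrb1c, Klrc1, Klrd1, Klre1, Klrg1, Klrk1, Klra8, Klrb1f and Klri2, and each had a row. Their RNA was read in 6 libraries of CD45+CD11b+F4/80+ cells sorted from 2 fat depots of C57BL/6 mice, the omentum (OM) and the mesentery (MY), which were 6 to 8 week old females per the study's methods. The naive OM and naive MY libraries came from mice that had received no cancer cells, and OM 24h, MY 24h, OM 7d and MY 7d came from mice 24 h and 7 d after the injection of ID8 cells, a mouse ovarian carcinoma line. The design text gives 9 mice handled in groups of 3, and each condition has 1 library, so no value has a replicate error and every difference describes a pair of libraries. The 3 libraries of a tissue differ in time point, and a test of tissue with time as a block was not run. Values are FPKM, fragment numbers divided by transcript length and library size, which can be compared between genes but carry no read counts.

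NK cells are innate lymphocytes that read their targets through a balance of activating and inhibitory surface receptors. Most of these receptors in the mouse are C-type lectin-like proteins encoded side by side in the natural killer gene complex of chromosome 6. Activating receptors signal through the adaptors DAP12, DAP10 or the Fc receptor gamma chain, while inhibitory ones recruit phosphatases through tyrosine motifs in their tails. NK cells can carry CD11b, and several of these receptors are also made by activated CD8 T cells.

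Genes that reached an FPKM of 1 in any library, 13064 in number, are called expressed genes below. All 10 receptors were among them, and 4 of them (Klrb1c, Klrd1, Klrk1 and Klrb1f) reached an FPKM of 1 in every library. Column sums of FPKM ran from 526887 to 713863, and the commonest ratio of FPKM values below 0.1 gave relative depths of 0.859 to 1.49 times that of naive MY. The genes of the sort markers were present throughout. Ptprc, the gene of CD45, ranged from 105.8 to 208.3, Itgam, the gene of CD11b, from 27.8 to 150.9, and Emr1, the gene of F4/80, from 20.5 to 135.0. NK cells were not a target of the sort, yet in naive MY Ncr1 (148.3) stood above Emr1 (20.5) on this per-length scale, while in OM 24h the order was the reverse (0.612 against 135.0). Other macrophage genes stood above Ncr1 in naive MY, among them Lyz2 (2968) and C1qb (383.9). Csf1r (120.9) and Cd68 (94.7) stood below it there.

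In the NCBIM37 assembly (mm9, the build of the files), Ncr1 occupies positions 4289326 to 4296766 of chromosome 7, plus strand, with 7 exons. The other 9 genes lie on chromosome 6. Klrg1 is apart from the rest, at 122220614 to 122232900, and the other 8 lie in an interval of 1351 kb that begins with Klrb1c (128728503 to 128739233) and ends with Klra8 (130065244 to 130079916). Between them come Klrb1f (128995919 to 129007489), Klre1 (129527911 to 129535842), Klrd1 (129541800 to 129548793), Klrk1 (129560341 to 129573882), Klrc1 (129616033 to 129628991) and Klri2 (129679059 to 129690502). RefSeq promoters of build GRCm38.p6, which hold 250 bases before and 50 after a gene's start, were matched for 7 of the 10 receptors, Klrd1, Klrg1 and Klri2 having no entry. The 3 printed below are those of Ncr1, the receptor with the widest spread over the libraries, of Klrk1, the receptor with the narrowest, and of Klrc1, which kept close to Ncr1. Capitals mark the RUNX core TGTGGT, searched on both strands.
Ncr1 promoter, chr7:4337465-4337764, plus strand: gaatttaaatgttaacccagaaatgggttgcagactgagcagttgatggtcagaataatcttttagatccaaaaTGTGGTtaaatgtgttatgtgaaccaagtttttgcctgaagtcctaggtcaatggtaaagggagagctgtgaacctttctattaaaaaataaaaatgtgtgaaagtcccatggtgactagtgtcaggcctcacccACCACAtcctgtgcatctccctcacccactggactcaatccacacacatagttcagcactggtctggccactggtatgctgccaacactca
Klrk1 promoter, chr6:129623815-129624114, minus strand: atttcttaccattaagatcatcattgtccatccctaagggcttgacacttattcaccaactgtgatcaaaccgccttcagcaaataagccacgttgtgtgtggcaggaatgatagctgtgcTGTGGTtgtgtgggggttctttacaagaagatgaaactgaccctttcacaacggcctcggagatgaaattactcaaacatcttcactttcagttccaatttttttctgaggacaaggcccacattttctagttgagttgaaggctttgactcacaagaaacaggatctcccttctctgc
Klrc1 promoter, chr6:129678924-129679223, minus strand: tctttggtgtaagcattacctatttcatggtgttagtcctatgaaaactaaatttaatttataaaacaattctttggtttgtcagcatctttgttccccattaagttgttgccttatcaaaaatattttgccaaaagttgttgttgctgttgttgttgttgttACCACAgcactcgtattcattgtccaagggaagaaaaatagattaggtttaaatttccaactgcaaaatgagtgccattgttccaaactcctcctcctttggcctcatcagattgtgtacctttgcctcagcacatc
The RUNX core occurred in 5 of the 7 receptor promoters (Klrb1c, Klrc1, Klre1, Klrk1 and Ncr1), against 16.9% of 27025 promoters and 13.0% of those of expressed genes, using the first start listed for each gene. In the Ncr1 promoter it occurred at both 176 and 41 bases before the start, in Klrk1 at 129 bases and in Klrc1 at 87 bases. The T-box letters GGTGTGA were in 0 of the 7, against 3.96% of all promoters. The ETS letters AGGAAGT (9.57% of all promoters) and the STAT letters TTCNNNGAA (8.47%) were each in 1, that of Klrb1f, and none of these matches overlapped another. A match is a description of these letters, and no binding was measured.

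Every receptor was higher in each MY library than in any OM library. This separation was found for 10 of 10 receptors and for 17.7% of the expressed genes, and the ratio of the lowest MY value to the highest OM value ran from 1.34 (Klre1) to 2.60 (Klrb1c). Without OM 24h, every MY library lay above both other OM libraries for 22.2% of the expressed genes. Every receptor was highest in naive MY and lowest in OM 24h, as were 6.87% of the expressed genes. From high to low, the order naive MY, MY 24h, MY 7d, naive OM, OM 7d and OM 24h was shared by 9 of the 10 receptors, against 1.24% of the expressed genes, and Klrk1 differed from it only in the order of naive OM and OM 7d. Whether neighbours in that order differ beyond the spread between mice is not known with 1 library each. In sorted bulk RNA, fewer cells of a type and less RNA per cell cannot be told apart. Together the 10 receptors held 0.148% of the summed FPKM of naive MY, 0.0804% of MY 24h and 0.0567% of MY 7d, and 0.0272% of naive OM, 0.00368% of OM 24h and 0.019% of OM 7d.

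**Figure D1:**
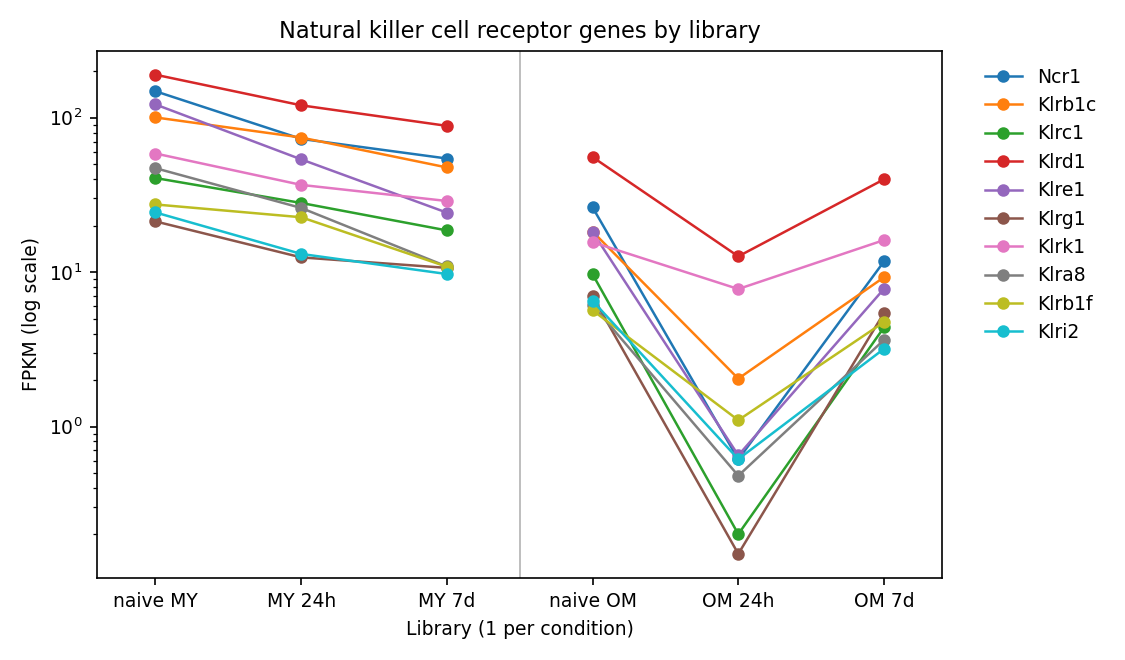
FPKM of the 10 receptor genes (log axis) in the 6 libraries, 1 point per library, with lines joining the time points of a tissue. Every receptor is lowest in OM 24h, where values run from 0.150 (Klrg1) to 12.6 (Klrd1), and highest in naive MY, where they run from 21.3 (Klrg1) to 189.9 (Klrd1).

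Among the activating receptors, Ncr1 encodes NKp46, the receptor most often used to define NK cells across species. Its FPKM was 148.3 in naive MY, 72.9 in MY 24h, 54.4 in MY 7d, 26.2 in naive OM, 0.612 in OM 24h and 11.7 in OM 7d. The naive MY library thus stood 5.65-fold above naive OM, and MY 24h stood 119-fold above OM 24h, the latter resting on a low value. Klrb1c encodes NK1.1, the activating antigen by which NK cells of C57BL/6 mice are stained. It stood at 100.4, 74.4 and 47.6 in naive MY, MY 24h and MY 7d and at 18.3, 2.04 and 9.26 in naive OM, OM 24h and OM 7d. Unlike Ncr1, it kept an FPKM above 1 in OM 24h.

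Klrk1 encodes NKG2D, which recognises stress-induced ligands and signals through DAP10 and DAP12. Its FPKM was 58.6, 36.7 and 28.9 in the MY libraries (naive, 24 h and 7 d) and 15.6, 7.77 and 16.1 in the OM libraries. Its highest value was 7.55 times its lowest, the narrowest spread of the 10, where that of Ncr1 was 242 times. Klra8 encodes Ly49H, an activating receptor that binds a protein of mouse cytomegalovirus and pairs with DAP12. It stood at 47.1, 26.0 and 10.9 in MY and at 6.11, 0.480 and 3.64 in OM. Between the naive libraries Klra8 had the largest ratio of the 10, at 7.71-fold higher in MY. Klrb1f encodes NKR-P1F, a lectin-like receptor for proteins of the Clec2 family. It stood at 27.4, 22.7 and 10.8 in MY and at 5.66, 1.10 and 4.75 in OM.

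Among the inhibitory receptors and their partner chains, Klrd1 encodes CD94, which forms a heterodimer with the NKG2 proteins. It had the highest FPKM of the 10 in every library, with 189.9, 120.3 and 88.6 in MY and 55.6, 12.6 and 39.9 in OM. Klrc1 encodes NKG2A, the inhibitory partner of CD94 that reads the class Ib molecule Qa-1. It stood at 40.7, 28.0 and 18.6 in MY and at 9.68, 0.201 and 4.39 in OM. The ratio of Klrd1 to Klrc1 was 4.67, 4.29 and 4.76 in the MY libraries and 5.74 in naive OM, but 62.9 in OM 24h and 9.10 in OM 7d. The ratio in OM 24h rests on a Klrc1 FPKM of 0.201, and 26.7% of the Klrc1 transcript in windows of read length is shared with Klrc2 and Klrc3, both listed at 0 in that library, so its size is uncertain.

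Klrg1 encodes an inhibitory receptor for cadherins that marks mature NK cells and differentiated T cells. Its FPKM was 21.3, 12.5 and 10.7 in MY and 6.97, 0.150 and 5.44 in OM. Its value in OM 24h was the lowest of any receptor in any library. Klre1 and Klri2 encode chains that pair with each other, Klri2 giving the pair an activating function. Klre1 stood at 121.8, 53.7 and 24.3 in MY and at 18.2, 0.651 and 7.79 in OM, and Klri2 at 24.3, 13.1 and 9.72 in MY and at 6.51, 0.615 and 3.19 in OM. Their ratio was 5.01 in naive MY, 4.10 in MY 24h, 2.498 in MY 7d, 2.79 in naive OM, 1.06 in OM 24h and 2.45 in OM 7d. In OM 24h both genes had an FPKM below 1, so the size of that ratio is uncertain.

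Pairs of libraries were compared by differences of log2(FPKM + 1), a scale that makes those of low genes too small, and a gene was counted at a difference of at least 2-fold. Between the naive libraries, all 10 receptors were at least 2-fold lower in OM, against 8.05% of the expressed genes. Their median log2 fold change was -2.03 (-2.76 for Klra8 to -1.48 for Klrg1), beside 0.01 for all expressed genes. At 24 h all 10 were again lower in OM (10.2% of the expressed genes), with a median of -3.87 and a range from -5.52 (Ncr1) to -2.10 (Klrk1). At 7 d, 8 of 10 were lower (4.99%), with a median of -1.36, and Klrg1 (-0.85) and Klrk1 (-0.80) were the exceptions. No receptor was 2-fold higher in OM at any time point, where 8.18% (naive), 13.9% (24 h) and 14.1% (7 d) of the expressed genes were.

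**Figure D2:**
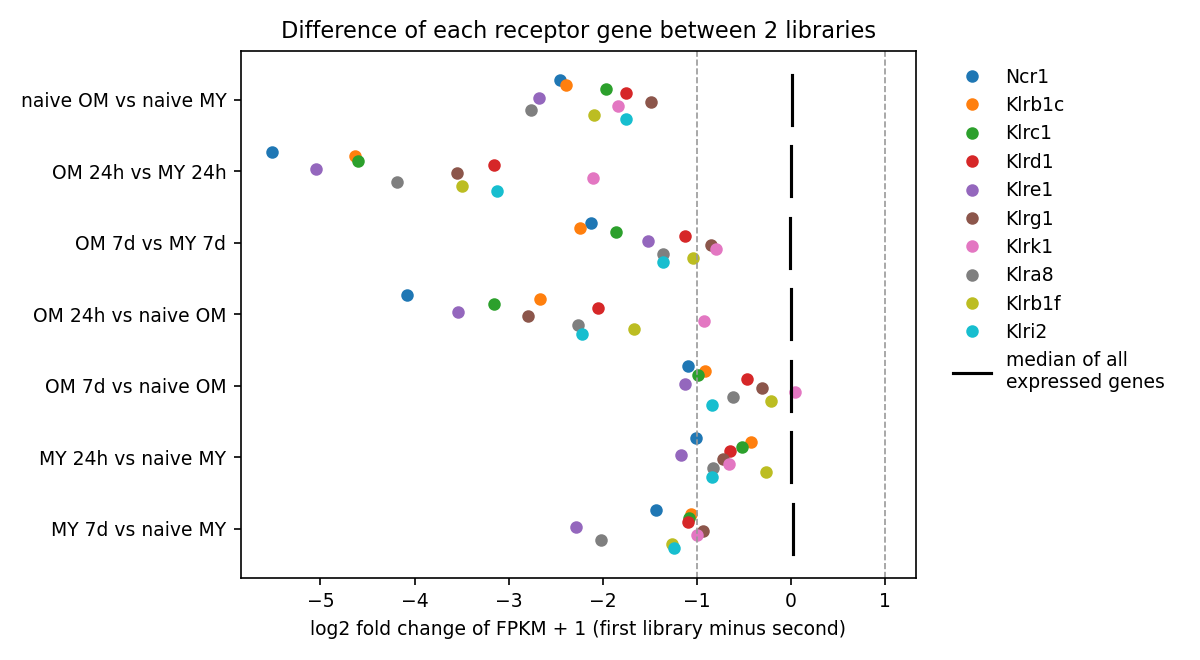
Difference of each receptor between the first and the second library named on the left, on the log2(FPKM + 1) scale, with 1 point per gene, black ticks for the median of all expressed genes and dashed lines at 2-fold. All points but Klrk1 in OM 7d vs naive OM (0.04) lie below 0 on this scale (with libraries scaled to Ptprc, Klrd1, Klrg1 and Klrb1f are also above 0 there), and the widest spread is in OM 24h vs MY 24h, from -5.52 to -2.10.

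After the injection of ID8 cells, the omental receptors stood lowest at 24 h and, for 9 of 10, between the 24 h and naive values at 7 d. In OM 24h against naive OM, 9 of 10 were at least 2-fold lower (6.45% of the expressed genes), with a median of -2.46. The exception was Klrk1 at -0.92, and the lowest were Ncr1 at -4.08, Klre1 at -3.54 and Klrc1 at -3.15. In OM 7d against naive OM, 2 of 10 were lower (1.96% of the expressed genes), Ncr1 at -1.10 and Klre1 at -1.12, and the median was -0.73. In FPKM, OM 7d stood between 2.07-fold (Klrk1) and 36.4-fold (Klrg1) above OM 24h.

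In the mesentery the receptors were lower at 24 h and lower again at 7 d. In MY 24h against naive MY, 2 of 10 passed 2-fold (1.52% of the expressed genes), Klre1 at -1.17 and Ncr1 at -1.01, with a median of -0.69. In MY 7d against naive MY, 8 of 10 were lower (2.29%), with a median of -1.17. Klre1 at -2.28 and Klra8 at -2.02 were the lowest, and Klrk1 (-0.997) and Klrg1 (-0.94) lay just inside 2-fold. The 2 tissues thus differed in order, 7 d being the lowest time point in MY and 24 h the lowest in OM. The 3 comparisons of tissues and the 4 of time points share libraries and are not independent of each other. No receptor was 2-fold higher in any of these 4 comparisons, where 11.9% (OM 24h), 11% (OM 7d), 2.8% (MY 24h) and 0.498% (MY 7d) of the expressed genes were.

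Rescaling each library to a sum of 1000000 moved the median of all genes by up to -0.28 (OM 24h vs MY 24h), and changed the share of calls that were lower. That share went from 49.6% to 61.4% in naive OM vs naive MY, from 42.4% to 58.8% in OM 24h vs MY 24h, from 35.1% to 49.6% in OM 24h vs naive OM and from 35.2% to 50.6% in MY 24h vs naive MY. In OM 7d vs naive OM it went the other way, from 15.2% to 10.5%, with the median of all genes moved by 0.13. The separation of the tissues held for 10 of 10 receptors under this scaling, under median-ratio scaling and with every library scaled to Ptprc.

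Ratios to Ncr1 within a library do not depend on scaling between libraries, and they showed which receptors moved with it. In FPKM, Klrc1 was between 0.274 and 0.385 of Ncr1 in all 6 libraries, although Ncr1 itself spanned 242-fold. In OM 24h this ratio rests on values of 0.201 (Klrc1) and 0.612 (Ncr1), and 26.7% of the Klrc1 windows are shared, so it is uncertain there. Klrg1 was at 0.144 of Ncr1 in naive MY, 0.266 in naive OM, 0.245 in OM 24h and 0.464 in OM 7d. Klre1 was between 0.446 (MY 7d) and 1.06 (OM 24h). In contrast, Klrd1 was at 1.28, 1.65 and 1.63 of Ncr1 in MY and at 2.12, 20.7 and 3.40 in OM. Klrk1 was at 0.395, 0.504 and 0.531 in MY and at 0.595, 12.7 and 1.37 in OM. Klrd1 and Klrk1 thus kept more of their level in OM 24h than Ncr1 did, and Klrd1 made up 48.1% of the summed FPKM of the 10 receptors there, against 24.3% in naive MY. By FPKM ratio, Klrb1c, Klra8, Klrb1f and Klri2 were also more than 2-fold higher relative to Ncr1 in OM 24h than in naive MY, and Klrc1, Klrg1 and Klre1 were not. On the log2(FPKM + 1) scale, 8 of the 9 other receptors were at least 2-fold higher relative to Ncr1 in OM 24h than in naive MY. For Klrc1 and Klrg1 this rests on the pseudocount, since their FPKM in OM 24h was below 1.

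**Figure D3:**
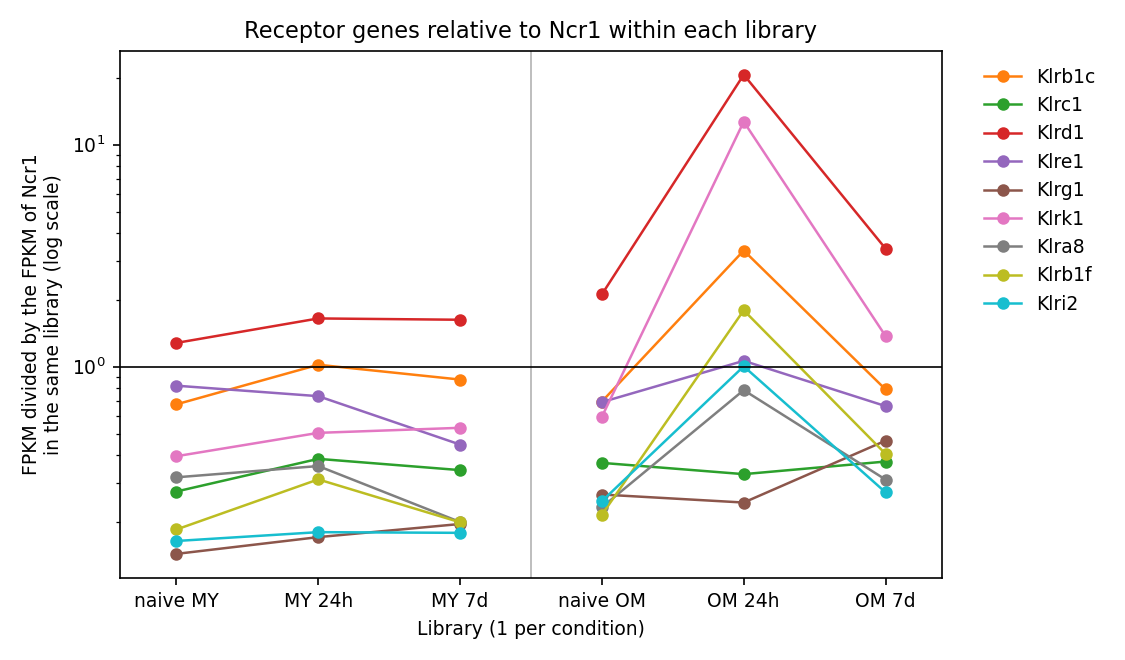
FPKM of 9 receptors divided by that of Ncr1 in the same library (log axis), 1 point per library, with lines joining the time points of a tissue and a black line at equality. Klrd1 (20.7) and Klrk1 (12.7) stand far above the others in OM 24h, while Klrc1 stays between 0.274 and 0.385. The OM 24h ratios rest on an Ncr1 FPKM of 0.612, and that of Klrc1 also on a Klrc1 FPKM of 0.201.

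The genes whose profile over the 6 libraries was most like that of Ncr1 were found by the root mean square difference of centred log2(FPKM + 1) values, among the 7988 other genes that reached an FPKM of 10 in any library. The closest was Prf1 (0.16), the gene of perforin, the pore-forming protein of cytotoxic granules, with 116.1, 74.95 and 55.4 in MY and 25.6, 0.807 and 12.5 in OM. Nkg7 (0.22), Ctsw (0.40) and Gzmb (0.43), also genes of cytotoxic lymphocytes, came next. They were followed by Ms4a4b (0.45), Il2rb (0.47), Klrc2 (0.50), Lck (0.52), Klra18 (0.53) and Cd7 (0.58). Among the receptors, Klre1 (0.35), Klrc1 (0.43) and Klrb1c (0.49) were nearest to Ncr1 and Klrk1 (1.29) was farthest. Measured against the mean profile of the 10 receptors in place of Ncr1, 2 of the 10 closest genes were shared, so this order belongs to Ncr1 and not to the group.

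Other killer cell lectin-like receptors were measured at 21 rows of a list of 22, of which 18 were expressed. In naive OM against naive MY, 13 of the 18 were at least 2-fold lower (8.05% of all expressed genes) and 1 was higher (8.18%), with a median of -1.59. Klra7 had the highest FPKM in MY, with 60.2, 30.8 and 19.5 there and 10.7, 1.014 and 4.13 in OM. Klrc2, whose product is the activating NKG2C, stood at 34.3, 21.7 and 12.02 in MY and at 5.46, a listed 0 and 3.39 in OM. In OM 24h, 10 of the 18 were listed at 0, against 1 in naive OM and none in the other 4 libraries, and none of the 10 main receptors was at 0 in any library. Over all 13064 expressed genes, OM 24h had fewer values listed at 0 than naive OM (294), MY 24h (334) and MY 7d (326). It had more than naive MY (208) and OM 7d (79). Cd74, a gene of antigen-presenting cells, was also listed at 0 in OM 24h, against an FPKM of 11323 (naive MY) to 26905 (naive OM) in the other 5 libraries. A listed 0 in OM 24h can thus be a failed estimate. Whether the zeros of the lectin-like genes are failed estimates or low RNA was not tested.

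Some lectin-like genes had other patterns. Klra2, which encodes Ly49B, known from myeloid cells, stood at 3.66, 4.64 and 2.56 in MY and at 7.97, 30.4 and 17.8 in OM, the reverse order of tissues. Klra17, which encodes Ly49Q, known from plasmacytoid dendritic cells, stood at 0.955, 1.22 and 0.856 in MY and at 6.10, 2.91 and 2.28 in OM. Klrb1b, at 12.8, 12.7 and 8.49 in MY and 7.45, 7.78 and 7.10 in OM, and Klri1, at 10.7, 19.8 and 11.8 in MY and 13.4, 5.05 and 9.39 in OM, differed less than 2-fold between the naive libraries. Klri1 is the inhibitory counterpart of Klri2.

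Position in the complex was set beside these values. In the interval from Klrb1c to Klra8, 30 further annotated genes had a row and 21 of them were expressed. Of 8 lectin-like receptors of the Klr families, 5 were at least 2-fold lower in naive OM than in naive MY and 1 was higher. Of the 13 other genes, 3 were lower, 3 were higher, and the median was 0.04. Clec7a, the gene of the beta-glucan receptor Dectin-1, lies between receptor genes and stood at 14.0 in naive MY and 55.4 in naive OM. Cd69, an early activation gene of lymphocytes, stood at 36.8 and 59.6. Among the 3 lower genes, Clec1b stood at 9.37 in naive MY and 0.806 in naive OM, and Clec2d at 4.56 and 1.73. Every MY library lay above every OM library for 4 of the 13 other genes and 6 of the 8 lectin-like receptors. That separation held for 17.7% of the expressed genes.

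**Figure D4:**
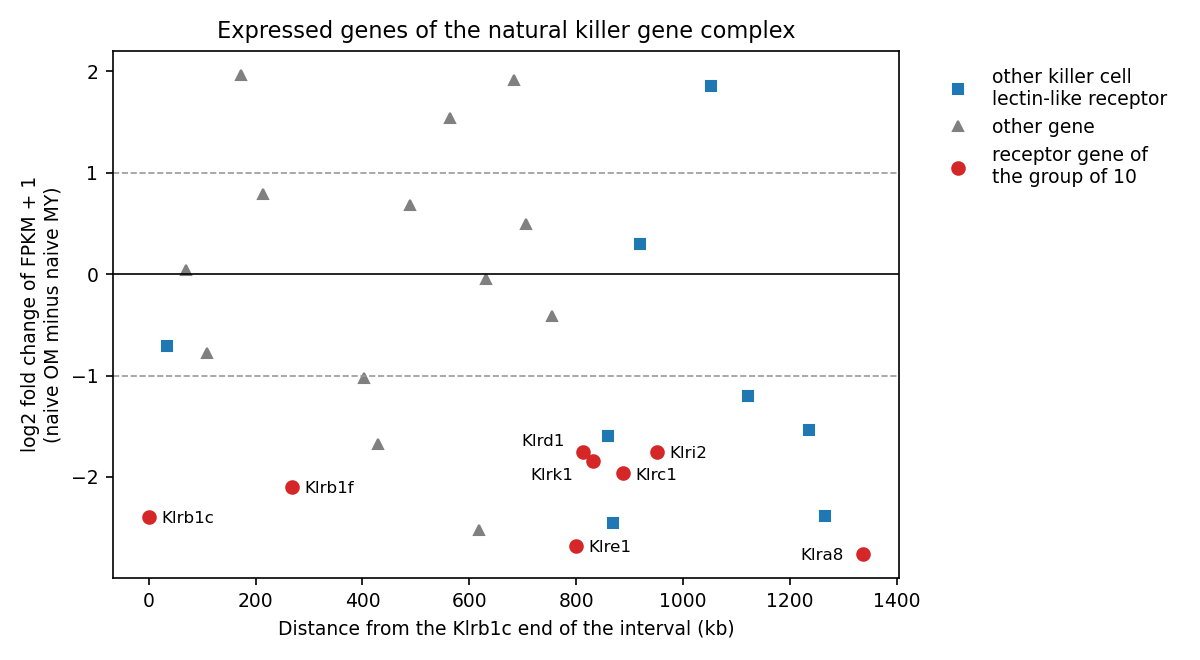
Difference between naive OM and naive MY on the log2(FPKM + 1) scale for expressed genes of the chromosome 6 interval, against distance from its Klrb1c end in kb, with dashed lines at 2-fold. The 8 receptors of the group (circles) lie between -2.76 and -1.75, while the 13 genes outside the Klr families (triangles) lie on both sides of 0 with a median of 0.04.

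Reads of near-identical genes could be split by the authors' counting. Of the windows of 75 bases (the read length) in the longest annotated transcript, 26.7% of Klrc1 were also found in Klrc2 or Klrc3, 3.62% of Klra8 in Klra9 or Klra10, 1.96% of Klrb1c in Klrb1a or Klrb1b and 0.521% of Klri2 in Klri1. The other 6 receptors had 0 shared windows. Only annotated protein-coding transcripts were searched. Windows shared with genes outside that set, such as Klra18, were not counted, so these shares are lower limits. Values of Klrc1, and of the Klra genes among themselves, are therefore less certain than those of Ncr1, Klrd1 and Klrk1. The table also has rows for Klra18 (50.7 in naive MY and 11.4 in naive OM) and Klra23 (49.3 and 1.91), named after their values were seen, of which the first was not in the annotation used here.

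The signalling partners of the receptors were mostly genes that macrophages use too. Tyrobp, the gene of DAP12, stood at 1159, 1455 and 745.0 in MY and at 980.2, 2352 and 970.0 in OM. Fcer1g, the gene of the Fc receptor gamma chain, ranged from 509.4 (MY 7d) to 2889 (OM 24h). Hcst, the gene of DAP10, was higher in MY, at 174.6, 155.6 and 176.6, than in OM, at 68.6, 72.8 and 63.8. Of 15 expressed adaptor and proximal signalling genes, 6 were at least 2-fold lower in naive OM than in naive MY and 2 were higher, with a median of -0.05. The shares of all expressed genes were 8.05% lower and 8.18% higher. The 6 lower adaptor and signalling genes included Lck (333.2 against 46.6), Cd247 (79.6 against 7.22) and Zap70 (63.3 against 8.47), which T cells and NK cells share. Of 13 expressed non-lectin receptors, 4 were lower and 1 was higher, with Cd96 at 29.6 against 4.996 and Cd244, the gene of the receptor 2B4, at 20.9 against 12.2.

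Ligands of the receptors had differences of both signs. Of 8 expressed ligand genes, 1 was lower in naive OM (8.05% of all expressed genes), 1 was higher (8.18%), and the median was -0.40. H2-T23, the gene of Qa-1, had the highest FPKM, between 491.7 and 587.7 in MY and between 392.3 and 425.4 in OM. Clec2i stood at 26.0, 39.3 and 21.7 in MY and at 14.8, 11.9 and 13.7 in OM. The NKG2D ligand genes were low, with Ulbp1 between 1.48 and 2.82 and Raet1e at 2.19 in OM 24h and 2.31 in OM 7d but at most 0.0969 in the other libraries, with a listed 0 in MY 24h.

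Genes of NK lineage and function were in part parallel to the receptors. Eomes, a T-box factor of NK cell maturation, stood at 23.9, 11.4 and 8.004 in MY and at 5.73, 0.233 and 3.62 in OM, the order of Ncr1. Tbx21, the gene of T-bet, stood at 75.4, 36.5 and 35.6 in MY and at 17.5, 1.57 and 16.4 in OM. Of 12 expressed lineage factors, 5 were at least 2-fold lower in naive OM and 1 was higher (Nfil3, 13.7 against 31.9). Of 12 genes of cytotoxic and secreted products, 8 were lower in naive OM than in naive MY (8.05% of all expressed genes). In OM 24h against naive OM, 9 were lower (6.45%) and 1 was higher (11.9%), and in MY 7d against naive MY, 9 were lower (2.29%). Gzma, a granzyme gene, stood at 1091.5, 667.1 and 449.3 in MY and at 142.0, 2.37 and 57.4 in OM. In OM against MY, 9 were lower and 2 higher at 24 h (10.2% and 13.9%). At 7 d, 6 were lower and 2 higher (4.99% and 14.1%). The 2 higher were the chemokine genes Ccl3 and Ccl4 at both times. Ccl3 stood at 21.7, 14.7 and 7.96 in MY and at 34.3, 74.4 and 47.0 in OM. Xcl1 stood at 26.1 in MY 7d and 37.7 in OM 7d.

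Of 8 cytokine receptor genes, 6 were lower in naive OM than in naive MY. Il2rb, a chain of the interleukin-2 and interleukin-15 receptors, stood at 243.0 against 54.6. Of 14 genes of NK maturation and tissue position, 6 were lower and 2 were higher, with Itga2, the gene of the NK antigen DX5, at 5.17 against 0.738. The 8 lists named here from the lectin-like receptors onward were counted together as 100 expressed genes outside the group of 10, of which 49 were lower and 8 higher in naive OM. Over all expressed genes, 8.05% were lower and 8.18% higher in naive OM than in naive MY, so the 8 higher are close to that share. The same shares stand beside each list count of these 2 libraries, above and below.

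Markers of T cells were, like the receptors, lower in OM than in MY, and in MY they were lower at 24 h but not at 7 d. All 10 genes of the T cell list were at least 2-fold lower in naive OM than in naive MY, and the list summed to between 561.4 and 1265 in MY and between 28.8 and 126.5 in OM, with none at 0. Cd3e, a chain of the T cell receptor complex, stood at 237.4, 103.6 and 255.5 in MY and at 28.0, 3.98 and 28.4 in OM. Cd8a stood at 44.1, 24.7 and 64.0 in MY and at 2.63, 0.282 and 1.44 in OM. In MY 24h against naive MY, 2 of 10 T cell genes were 2-fold lower with a median of -0.82, beside 2 of 10 receptors with a median of -0.69. In MY 7d against naive MY, 0 of 10 T cell genes were 2-fold lower and their median was 0.42, whereas 8 of 10 receptors were lower with a median of -1.17. The part of T cell RNA in the receptor values was not tested.

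The macrophage list of 12 genes summed to between 4408 and 7226 in MY and between 8239 and 38101 in OM, with none at 0 and its highest sum in OM 24h, the library with the lowest receptors. Lyz2 made up most of the OM sums, at 6791 in OM 7d and 24780 in OM 24h. By gene, 3 of the 12 had every OM library above every MY library, and the median log2 fold change of OM against MY was 0.58 in the naive libraries, 1.63 at 24 h and -0.39 at 7 d. In OM 24h against naive OM, 10 of the 12 were at least 2-fold higher. The B cell list (5 of 5 expressed) was also at its OM lowest in OM 24h, with 904.4, against 3967 in naive OM and 2447 in OM 7d, and between 524.3 and 1539 in MY. The neutrophil list (6 of 7 in the table) summed to between 222.1 and 850.3 in MY and between 7233 and 19248 in OM. The part of these differences in composition in the receptor values was not tested.

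Other lists moved with tissue or time as follows. The fibroblast list (5 genes) summed to at most 2.88 in MY and to between 219.7 and 1179 in OM, and the mesothelial list (5 genes) to at most 0.428 in MY and to between 63.4 and 747.3 in OM, with Pdgfra of the fibroblast list at 0 in MY 24h, Upk1b at 0 in naive MY and Wt1 at 0 in naive MY and MY 7d. Genes of the dissociation response, all 8 of them at least 2-fold higher in naive OM, summed to between 251.1 and 285.4 in MY and between 2741 and 4518 in OM. The mast cell list (7 genes) summed to 4.38 in OM 24h and to between 38.9 and 74.0 in the other libraries, with Cpa3 at 0 in OM 24h and Tpsb2 at 0 in naive MY. The naive MY sum rests on Cma1 (21.9) and Kit (16.2). Of its 6 expressed genes, 4 were at least 2-fold higher in naive OM than in naive MY (8.18% of all expressed genes) and 0 were lower. In MY 7d against naive MY, 4 were higher (0.498%) and 0 were lower. The dendritic cell list (7 genes) summed to between 136.2 and 225.9 in MY and between 146.3 and 344.5 in OM. Its OM sums rest on Cd209a (263.8 in naive OM), while Siglech stood at 29.9 in naive MY against 1.15 in naive OM and Flt3 at 47.2 against 24.6, and in OM 24h against MY 24h 4 of the 7 were at least 2-fold lower and 1 was higher. The list of group 2 innate lymphoid cells summed to between 52.7 and 82.5 in MY and between 8.13 and 18.3 in OM, and Il1rl1, its defining marker, was at most 0.894 in MY and 3.44 in OM. Its MY sums rest mostly on Il7r (35.1 in naive MY and 66.8 in MY 7d). Of its 6 expressed genes, 2 were at least 2-fold lower and 2 higher in naive OM than in naive MY, with a median of -0.21. The part of these lists in the receptor values was not tested.

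**Figure D5:**
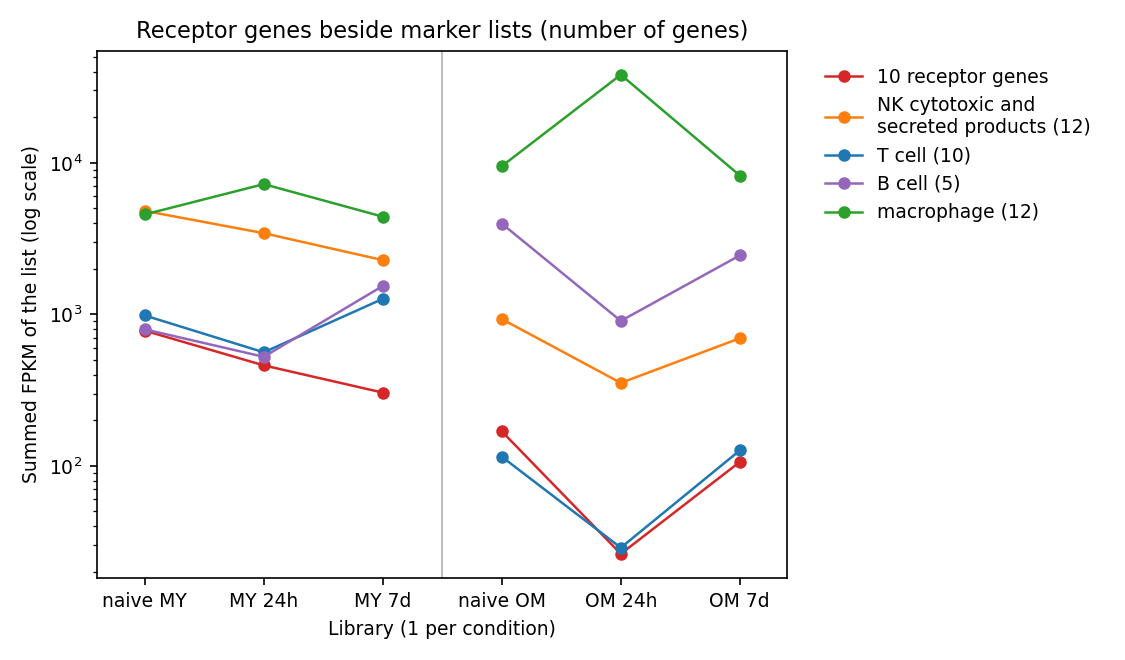
Summed FPKM (log axis) of the 10 receptors and of 4 lists in the 6 libraries, with the number of genes in brackets, 1 point per library and lines joining the time points of a tissue. From naive MY to MY 7d the receptors go from 779.9 to 304.4 while the T cell list goes from 982.9 to 1265, and in OM 24h the receptors (26.3) are lowest where the macrophage list (38101) is highest.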

How the data were processed

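Macrophages were sorted as CD45+CD11b+F4/80+ cells from dissociated omentum and mesenteric adipose tissue, and the deposit holds 1 library per condition (6 in all). The paper's reporting summary gives an n of 3 for the RNA-seq, each a pool of 3 omenta. How these pools relate to the 6 libraries is not known. Per the submitters' processing notes and the methods, the authors checked reads with FastQC 0.11.4 and aligned them to mm9 with STAR 2.4.2a. The authors used Cufflinks to make the deposited FPKM, 1 row per gene symbol. Read numbers per value are not known, so no counting interval is given. Cufflinks shares reads among similar genes, which bears on the Klrc and Klra families.

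Differences of log2(FPKM + 1) were taken in Python 3.11.15 (pandas 2.3.3, numpy 2.4.6), and figures were drawn with matplotlib 3.10.9. The counting step was checked on simulated data (naive OM vs naive MY, 13064 genes), where all 200 planted changes were found with 0 false calls. Both simulated columns were copies of naive MY with little added noise, and the planted changes were 4-fold, in genes at an FPKM of at least 10. The check therefore covers only the arithmetic of counting, and not low values or the spread between mice. No test was run. Single conditions have 1 library each, and tissue was compared without a model. The 10 genes and the lists were chosen with earlier results of these data known, so their counts and medians are descriptions beside those of all genes. Genes were named as members, as the highest of a list or its defining markers, or as the 10 nearest to Ncr1. The others named were chosen after their values were seen. Among them were Klri1, Klrb1b, Klra17, Cd244, Cd96, Cd247, Zap70, Hcst, Nfil3, Itga2, Raet1e, Cd74, Clec7a and Cd69. Clec1b, Clec2d, Ccl3, Ccl4, Xcl1, Csf1r, Cd68, Cd4 and Foxp3 were also chosen in this way. Positions come from NCBIM37 and GENCODE M1, and promoters from RefSeq (GRCm38.p6). Alternatives were pseudocounts, filters, thresholds and scalings.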

Additional observations from a re-analysis of the deposited data

Results flagged for a closer look

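On the deposited scale, Klrk1 was the one receptor of the 10 whose sign was unlike in OM and MY when 7 d was set against naive. Its difference on the log2(FPKM + 1) scale was 0.0427 in OM and -0.997 in MY. Both rest on 1 library per condition, and the OM value is close to 0. With libraries scaled to Ptprc, an alternative chosen after seeing the data, Klrd1 (0.07), Klrg1 (0.17) and Klrb1f (0.25) were also above 0 in OM and below 0 in MY (-1.23, -1.06 and -1.38). The difference between OM and MY was not tested.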

How the results depend on the processing

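The labels give no replicate numbers that pair libraries, and a comparison of OM with MY paired by time point was not run. Of 1982 recomputed values, 1727 stayed within 1.5-fold (0.58 on the log2 scale) of the main value, and 255 moved beyond it, as did 47 of the 350 log2 fold changes of single receptors. The sign changed in 9, in 0 of them from a main value of 2-fold or more. Of these, 3 were log2 fold changes of OM 7d vs naive OM under Ptprc scaling, Klrd1 (-0.47 to 0.07), Klrg1 (-0.31 to 0.17) and Klrb1f (-0.21 to 0.25), and 6 were ratios to Ncr1 when the geometric mean of 4 receptors took its place, such as Klrb1c in OM 24h (0.92 to -0.69). Keeping genes at an FPKM of 1 in every library left 4 receptors, by construction, of which 4 (naive OM vs naive MY), 4 (OM 24h vs MY 24h), 3 (OM 7d vs MY 7d), 3 (OM 24h vs naive OM), 0 (OM 7d vs naive OM), 0 (MY 24h vs naive MY) and 3 (MY 7d vs naive MY) were lower, with a median of -1.86 in OM 24h vs naive OM. At 4-fold the numbers lower were 5 (naive OM vs naive MY), 2 (OM 7d vs MY 7d), 0 (OM 7d vs naive OM), 0 (MY 24h vs naive MY) and 2 (MY 7d vs naive MY), and at 1.5-fold 6 (OM 7d vs naive OM) and 7 (MY 24h vs naive MY). With a pseudocount of 0.1 the median was -5.31 in OM 24h vs MY 24h and -3.31 in OM 24h vs naive OM, and 4 were lower in OM 7d vs naive OM. With a pseudocount of 5 these were -2.58, -1.36 and 0, with 5 lower in OM 7d vs MY 7d and 1 in MY 24h vs naive MY. Rescaling to a sum of 1000000 gave a median of -4.51 in OM 24h vs MY 24h and 1 lower in OM 7d vs naive OM. Scaling to Ptprc, chosen after seeing the data, gave 3 lower in OM 7d vs MY 7d with a median of -0.73, and 0 in OM 7d vs naive OM and in MY 24h vs naive MY, while the median of all genes moved by up to 0.66 and the share of calls that were lower went from 42.4% to 19.9% in OM 24h vs MY 24h, from 26.1% to 8.16% in OM 7d vs MY 7d, from 35.1% to 8.10% in OM 24h vs naive OM, from 15.2% to 3.82% in OM 7d vs naive OM and from 35.2% to 12.9% in MY 24h vs naive MY. Relative to the geometric mean of 4 receptors in place of Ncr1, 1 receptor was 2-fold higher in OM 24h than in naive MY. Of the 10 genes most like Ncr1, 5 were shared with a pseudocount of 0.1 and 2 with the mean receptor profile. Counts for OM 7d and MY 24h against naive thus depend on the threshold. Between tissues at 24 h, 10 receptors were lower in OM at 1.5-fold, 2-fold and 4-fold. Between the naive libraries, 10 were lower at 1.5-fold and 2-fold but 5 at 4-fold, so that count also depends on the threshold. Values under an FPKM of 1 in OM 24h limit the size of the differences there. The cause of the other shifts was not tested.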
